A study of Saccharomyces cerevisiae with 12 samples.

Results

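The interaction of the cyc8 and snf2 labels was examined in budding yeast, Saccharomyces cerevisiae, over all 12 RNA-seq libraries of a 2 by 2 design. All 12 libraries of the series belong to it, and for each gene the effect of the cyc8 label beside the snf2 label was set against its effect without it. The double-mutant libraries (cyc8 snf2, n = 4) came from strain YDB1.7, a derivative of FY2083 that carries cyc8::URA3 in addition to snf2::LEU2. Those labelled snf2 (n = 2) came from FY2083 itself, of mating type a, with snf2::LEU2. Both of these strains also carry trp1-del63, lys2del0, his3del200, met15del0 and ura3del0. The cyc8 libraries (n = 3) came from YAFTCD4, which is BY4741 with cyc8::KAN, and the wt libraries (n = 3) from BY4741, also of mating type a. YAFTCD4 and BY4741 share leu2del0, his3del1, ura3del0 and met15del0. Cells of all 4 groups were in log phase in the rich medium YPD with 2% glucose at 30 °C. Each label names 1 strain per group, and no second isolate of a mutant is given.

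Cyc8, also called Ssn6, acts together with Tup1 to hold genes off at promoters to which sequence-specific repressors deliver the pair. Snf2 is the ATPase of Swi-Snf, a complex that uses ATP to slide or evict nucleosomes and that many genes need in order to be activated. Genes that the corepressor holds down can therefore depend on Swi-Snf once the corepressor is gone, and the double mutant is the classical way to see which ones do. On a log2 scale an interaction of 0 means that the cyc8 label multiplied a gene's level by the same factor with and without the snf2 label. A strain difference that multiplies a gene by a constant factor in both members of a strain cancels in this difference. A strain difference in how a gene answers to the loss of Cyc8 does not cancel and cannot be told apart from the snf2 label.

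Several of the gene groups below have known promoter letters, and 6 promoter windows are printed to show these letters in genes described below. Each window has 300 bases of the reference genome R64 (RefSeq), ends before the gene model of the counted table begins, and is read 5′ to 3′ towards the gene. PHO84 and SPL2 belong to the phosphate regulon, MET2 and SUL2 to sulfur assimilation, ARG3 to arginine synthesis and TIR1 to the wall proteins of anaerobic cells. The windows lie at chrXIII:26001-26300 (minus strand), chrVIII:375321-375620 (minus strand), chrXIV:116849-117148 (plus strand), chrXII:323044-323343 (plus strand), chrX:268299-268598 (plus strand) and chrV:174608-174907 (plus strand). Capitals mark CACGTG, the core bound by Pho4 and by Cbf1, in PHO84, SPL2, MET2 and SUL2. In SUL2 they also mark AACTGTGG (Met31 and Met32), in ARG3 TGACTC (Gcn4), and in TIR1 TCGTATA (Upc2) and TATAAA (the letters of a TATA box), each in either orientation.
PHO84: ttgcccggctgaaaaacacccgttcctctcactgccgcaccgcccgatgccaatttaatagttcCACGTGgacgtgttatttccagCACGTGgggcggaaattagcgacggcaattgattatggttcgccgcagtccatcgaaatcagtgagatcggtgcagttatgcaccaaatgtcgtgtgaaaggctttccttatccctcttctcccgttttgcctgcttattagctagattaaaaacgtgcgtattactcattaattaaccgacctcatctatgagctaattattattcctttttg
SPL2: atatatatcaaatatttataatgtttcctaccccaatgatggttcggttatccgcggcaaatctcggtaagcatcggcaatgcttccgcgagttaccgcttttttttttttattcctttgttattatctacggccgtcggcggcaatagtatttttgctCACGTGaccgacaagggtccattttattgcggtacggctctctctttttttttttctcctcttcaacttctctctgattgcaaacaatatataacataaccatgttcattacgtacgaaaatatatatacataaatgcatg
MET2: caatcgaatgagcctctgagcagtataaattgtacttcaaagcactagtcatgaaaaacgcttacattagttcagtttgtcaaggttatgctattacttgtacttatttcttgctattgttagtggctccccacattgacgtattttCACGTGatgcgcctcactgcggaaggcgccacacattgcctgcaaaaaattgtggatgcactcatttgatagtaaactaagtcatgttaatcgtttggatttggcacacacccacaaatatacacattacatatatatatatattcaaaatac
SUL2: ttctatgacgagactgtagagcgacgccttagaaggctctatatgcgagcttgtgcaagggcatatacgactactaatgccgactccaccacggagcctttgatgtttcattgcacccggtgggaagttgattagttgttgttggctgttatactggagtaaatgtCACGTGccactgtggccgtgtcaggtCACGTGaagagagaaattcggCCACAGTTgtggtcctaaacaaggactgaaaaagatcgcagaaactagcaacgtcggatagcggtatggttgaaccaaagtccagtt
ARG3: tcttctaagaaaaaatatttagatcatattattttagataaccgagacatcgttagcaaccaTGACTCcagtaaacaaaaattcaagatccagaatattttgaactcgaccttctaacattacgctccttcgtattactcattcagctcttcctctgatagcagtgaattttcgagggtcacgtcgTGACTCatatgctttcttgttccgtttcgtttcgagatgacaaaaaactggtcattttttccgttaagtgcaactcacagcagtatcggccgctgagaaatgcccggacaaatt
TIR1: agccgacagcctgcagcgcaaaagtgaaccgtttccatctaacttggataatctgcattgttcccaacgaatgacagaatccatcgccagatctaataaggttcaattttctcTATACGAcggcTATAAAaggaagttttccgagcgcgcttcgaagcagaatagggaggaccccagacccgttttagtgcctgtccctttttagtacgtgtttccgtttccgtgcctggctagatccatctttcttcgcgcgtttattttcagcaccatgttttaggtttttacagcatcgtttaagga

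Each library held 16378131 to 27230568 counts, so that 3 counts, the limit that a count of 0 allows, were 0.11 to 0.183 CPM (counts scaled to library size, with TMM factors in the levels below). SNF2 averaged 109 ± 4.42 CPM in cyc8 snf2, 66.0 ± 0.933 in snf2, 79.6 ± 8.48 in cyc8 and 80.1 ± 8.21 in wt (SD, n = 4, 2, 3 and 3). CYC8 averaged 53.2 ± 2.58, 61.5 ± 4.72, 59.3 ± 4.72 and 77.1 ± 6.47 CPM in the same groups. Neither transcript was lost under its own label, so the groups are called by their labels and every direction below stands for a label. The sources used here do not say how much of either gene was replaced. The labelled mating type a was checked on its markers. STE2, the receptor of a cells, had 112 to 584 CPM over the 12 libraries. STE3, the receptor of alpha cells, had at most 9.32 CPM, and MF(ALPHA)1, a pheromone of alpha cells, at most 0.511 CPM. URA3, the selection marker at CYC8 in YDB1.7, was at 16.7 to 19.6 CPM in cyc8 snf2, while the snf2 and cyc8 libraries held 0 counts of it. The KAN marker of the cyc8 libraries differs from it, so an effect of a working URA3 gene does not cancel in the interaction. The labels do not state whether libraries of the same group stem from different cultures, and p-values therefore reflect the spread among these libraries, possibly technical.

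The cyc8 label acted differently beside the snf2 label on 549 of 6171 genes tested, or 8.9% (quasi-likelihood test of edgeR, p below 0.05 after Benjamini-Hochberg adjustment, and a size of at least 1 on the log2 scale). Of these, 259 were positive (4.2%), with a higher effect beside snf2, and 290 were negative (4.7%). The median interaction over all genes tested was -0.01. At an adjusted p below 0.05 alone, 1629 genes passed. For 4222 genes (68.4%) the 95% interval of the interaction lay within -1 and 1, which is less than 2-fold either way. Of the 549 genes, 369 were called in each of the 12 fits that left out 1 library. Across the 6171 genes, the effect of the cyc8 label beside snf2 and the effect without it had a Pearson r of 0.7 and a Spearman rho of 0.52, given as a description, since genes are not independent replicates and the comparisons share scaling but no library.

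**Figure D1:**
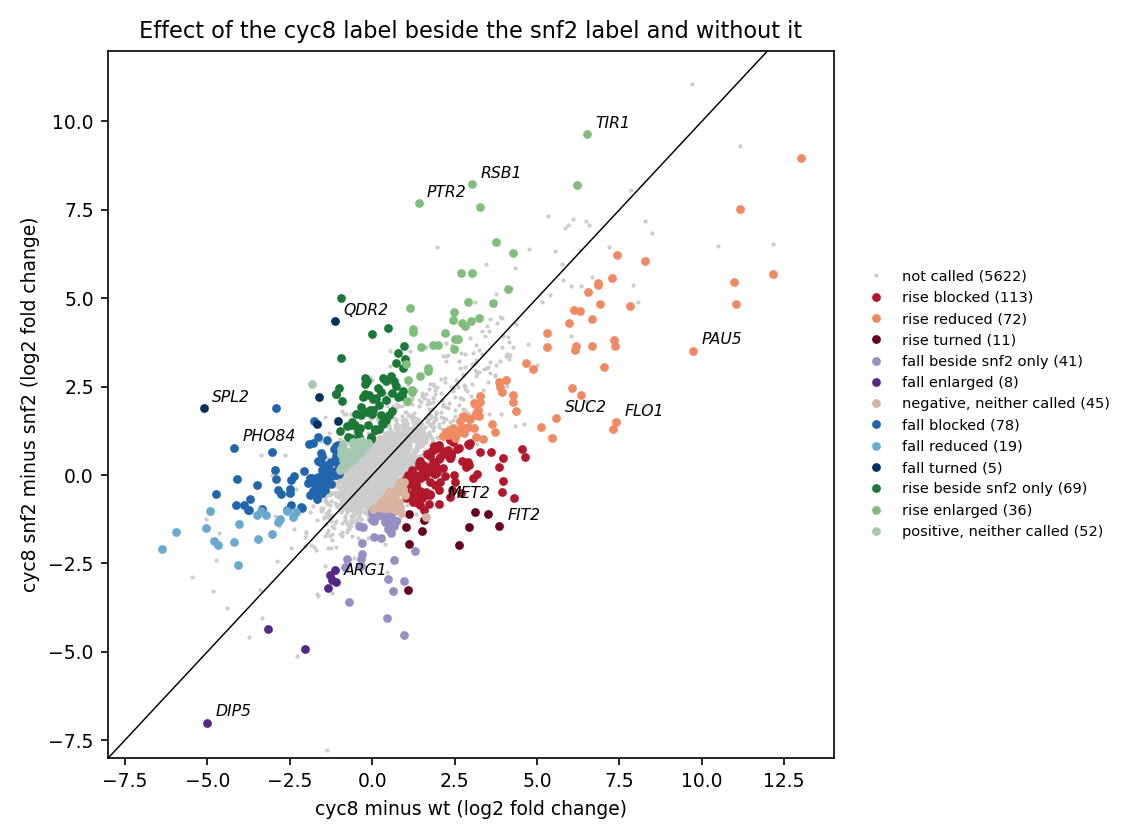
Log2 fold change of cyc8 snf2 over snf2 (y axis) against that of cyc8 over wt (x axis) for the genes tested except URA3, with the line of equal effects and the 549 genes with a called interaction coloured by class. The 290 genes with a negative interaction lie below the line, FLO1, PAU5 and SUC2 among them, and the 259 with a positive one lie above it, among them PTR2, RSB1 and SPL2.

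Classed by the effect of the cyc8 label, suppression was more common than synergy. In 298 genes a change that the cyc8 label made alone was blocked, reduced or turned round beside snf2, and in 154 genes a change was larger beside snf2 or was called only there. In the remaining 45 negative and 52 positive genes neither effect of the cyc8 label passed its own test. A rise was blocked in 113 genes (called higher in cyc8 than in wt, not called in cyc8 snf2 against snf2), reduced in 72 and turned into a fall in 11. A fall was blocked in 78, reduced in 19 and turned into a rise in 5. A rise was enlarged in 36 genes and called only beside snf2 in 69, and a fall was enlarged in 8 and called only beside snf2 in 41. The classes use the same libraries as the interaction and are a description. Many of these genes already differed between snf2 and wt, a comparison that crosses the strains. Of the blocked rises 70 were called higher in snf2 than in wt and 1 lower, of the reduced rises 26 and 5, and all 11 turned rises higher (4.25% of all genes). Of the blocked falls 64 were called lower in snf2 than in wt and 1 higher, and of the reduced falls 17 and 0 (5.4% of all genes called lower). Of 640 genes that were higher in cyc8 than in wt (10.4% of those tested), 196 had a negative interaction, 36 a positive one and 408 none that was called. Of 215 that were lower (3.48%), 102 had a positive interaction, 8 a negative one and 105 none that was called.

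Flocculins, the lectin-like wall proteins that make cells clump, had a smaller rise beside snf2. All 5 flocculin genes tested had a negative interaction, with a median of -3.61, against a called share of 4.7% and a median of -0.01 over all genes. FLO1 (YAR050W, chrI:203403-208016, plus strand) had 21.0, 20.9, 21.5 and 16.1 CPM in cyc8 snf2, 6.63 and 7.57 in snf2, 799, 686 and 680.3 in cyc8, and 3.45, 5.09 and 4.34 in wt. The cyc8 libraries stood far above the rest, and the cyc8 snf2 libraries lay above both snf2 libraries. Its log2 interaction was -5.91 ± 0.20 (SE, edgeR adjusted p = 5.85e-10), and 53.8% of its 50-base words occur elsewhere in the genome, so that reads can be split with other genes. FLO11 (YIR019C, chrIX:389572-393675, minus strand), a wall glycoprotein of filamentous growth, had a log2 fold change of 1.05 beside snf2 and of 5.45 without it. Of the 5 genes 4 were still called higher in cyc8 snf2 than in snf2, as 9.12% of all genes were, FLO9 at 4.40 and FLO10 at 2.64 among them. In such bulk RNA, fewer cells that express a gene and less RNA per cell cannot be told apart.

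SUC2, the secreted invertase that splits sucrose and a textbook target of both complexes, showed the same order of groups. SUC2 (YIL162W, chrIX:37316-39203, plus strand) had 325, 391, 388 and 383 CPM in cyc8 snf2, 124 and 120.2 in snf2, 6006, 5428 and 5365 in cyc8, and 125, 121 and 102 in wt. The snf2 and wt libraries overlapped, the cyc8 snf2 libraries stood above both, and the cyc8 libraries were highest. Multiplying the effects of the labels would have put cyc8 snf2 at 5905 CPM. The log2 interaction was -3.99 ± 0.14 (edgeR adjusted p = 6.77e-10). Of the 11 genes for sugars other than glucose, 5 were negative and 0 positive (median -0.98), against 4.7% and 4.2% of all genes. Among the 5 were the maltase gene MAL32 and the isomaltase gene IMA2, both of which have near copies. HXT17, a hexose transporter, reached 5.62 to 9.18 CPM in cyc8 snf2 and 573 to 670.4 CPM in cyc8, against 0.140 and 0.192 CPM in snf2 and 0.0951 to 0.401 CPM in wt. The snf2 and wt values stand for few counts, the limit of 3 counts being 0.125 to 0.15 CPM there. Its interaction of -5.49 ± 0.86 (edgeR adjusted p = 0.000602) rests on these low levels.

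The PAU genes, a family of small wall proteins made without oxygen, were mostly negative or not called. Of 18 tested, 10 had a negative interaction and 0 a positive one, against 4.7% and 4.2% of all genes. The median was -3.32 and the range from -6.45 to 1.23. PAU5 (YFL020C, chrVI:99116-100293, minus strand), in which only 7.2% of the words are repeated, had 39.7, 38.6, 36.8 and 40.8 CPM in cyc8 snf2, 2.86 and 3.96 in snf2, 1594, 1438 and 1367 in cyc8, and 2.41, 1.38 and 1.34 in wt. Every cyc8 snf2 library lay far below every cyc8 library and above every snf2 and wt library. The log2 interaction was -6.21 ± 0.25 (edgeR adjusted p = 3.15e-09). PAU13, at -6.45 ± 0.34 (edgeR adjusted p = 2.48e-08), had the lowest value of the list, in a model overlapped over 52.5% on the other strand, while PAU23 (-0.10) and PAU4 (-0.38) were not called. The DAN and TIR mannoproteins, whose list shares PAU23 and PAU24 with this one under other names, had 5 negative and 1 positive interaction of 9. DAN1 was not called (1.35, edgeR adjusted p = 0.299).

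**Figure D2:**
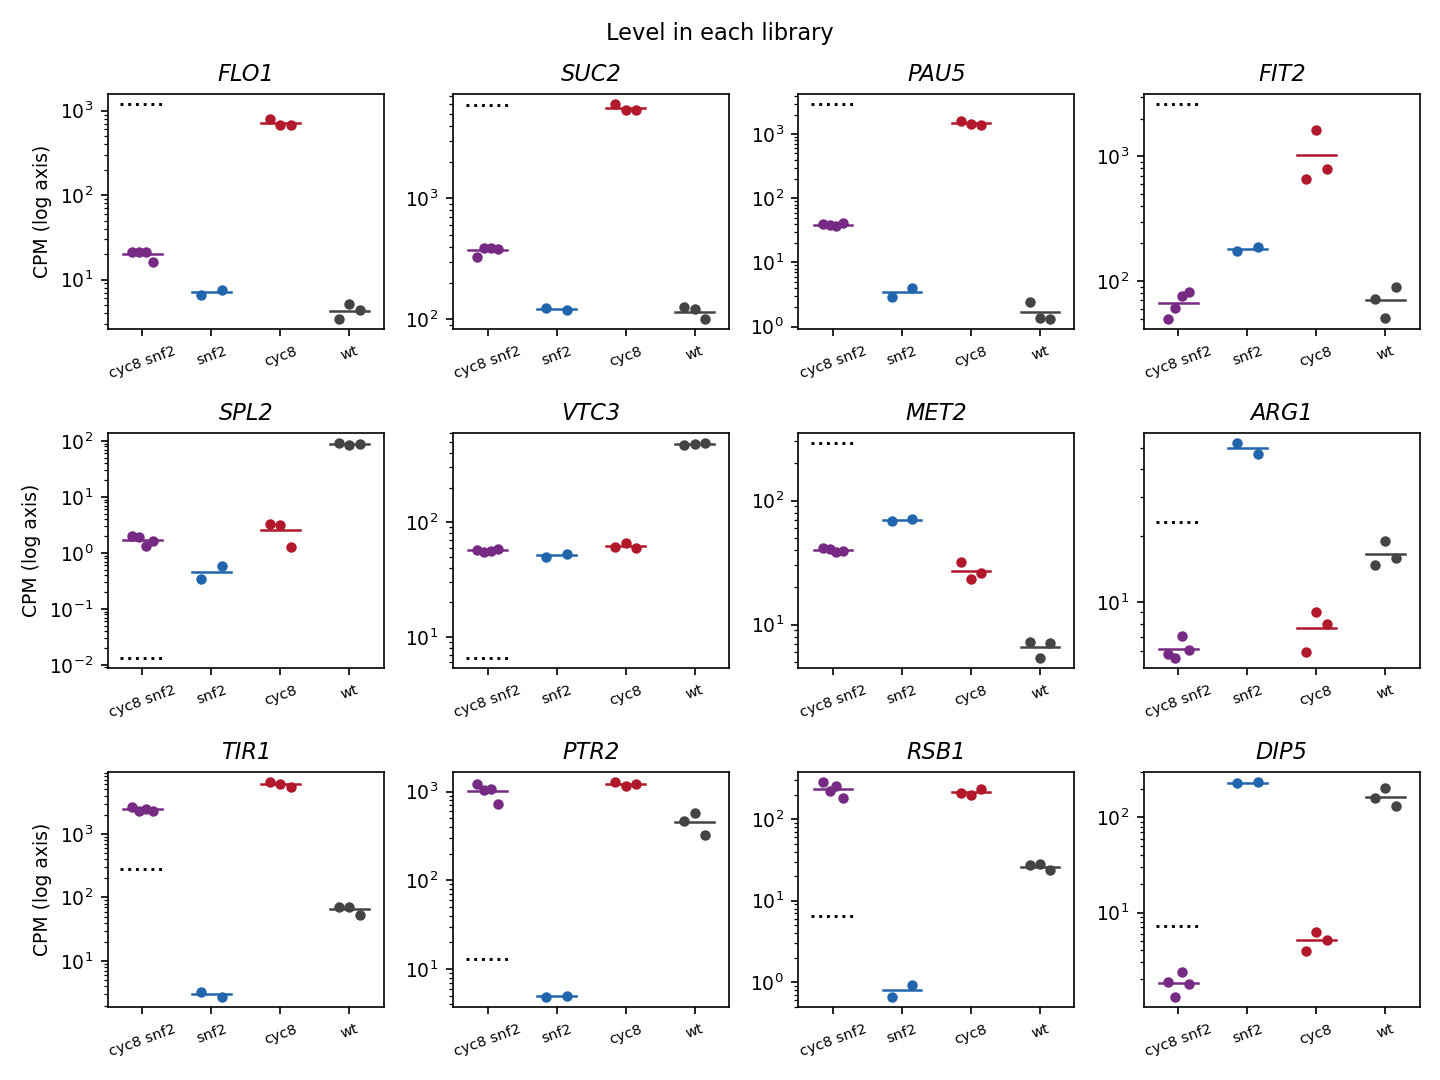
CPM on log axes in each library of cyc8 snf2, snf2, cyc8 and wt, from left to right, for 12 genes. Points are libraries, solid lines are group means, and the dotted line over cyc8 snf2 is the level that multiplying the effects of both labels would give. FLO1, SUC2, PAU5 and FIT2 lie below that line in cyc8 snf2, and PTR2, RSB1, TIR1 and SPL2 above it.

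Some genes of nutrient-poor growth and of meiosis had a smaller rise beside snf2. Among 16 genes of gluconeogenesis and acetate use, 8 were negative and 0 positive (median -0.99), against 4.7% and 4.2% of all genes. Of the 16, 5 were called higher in cyc8 snf2 than in snf2 (9.12% of all genes). In cyc8 against wt, 10 were called higher (10.4% of all genes). PCK1, which opens gluconeogenesis, averaged 21.2 ± 3.49 CPM in cyc8 snf2, 11.7 ± 1.18 in snf2, 44.3 ± 6.39 in cyc8 and 5.84 ± 0.608 in wt. In the meiosis list 3 of 15 were negative and 0 positive, and these 3, IME1, REC8 and RIM4, were the ones that rose with the cyc8 label. RIM4 was still called higher beside snf2, at 1.68, against 2.74 without it. IME1 (YJR094C, chrX:604397-605848, minus strand), the master inducer of meiosis, had 13.9, 11.2, 11.3 and 12.9 CPM in cyc8 snf2, 7.40 and 8.22 in snf2, 59.7, 54.4 and 75.9 in cyc8, and 5.49, 5.13 and 4.92 in wt. Its level in cyc8 snf2 was within 2-fold of snf2 by the 95% interval, and the interaction was -2.95 ± 0.20 (edgeR adjusted p = 2.78e-07). GAP1, the general amino acid permease, averaged 104 ± 27.1 CPM in cyc8 snf2, 62.5 ± 0.753 in snf2, 317 ± 2.47 in cyc8 and 13.7 ± 1.01 in wt. Each single mutant was above wt, though the difference between snf2 and wt crosses the strains. Multiplying the differences from wt would have put cyc8 snf2 at 1451 CPM, and adding them at 366 CPM.

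In the iron regulon, the genes that cells switch on to take up iron, 8 of 20 were negative and 1 was positive (median -1.30). Over all genes 4.7% were negative and 4.2% positive. FIT2 (YOR382W, chrXV:1059214-1060128, plus strand), a wall mannoprotein that retains iron-bearing siderophores, had 50.0, 60.6, 75.2 and 82.2 CPM in cyc8 snf2, 175 and 188 in snf2, 653, 1626 and 784 in cyc8, and 72.4, 50.1 and 90.2 in wt. The cyc8 snf2 and wt libraries overlapped, and both snf2 libraries lay above them. The log2 interaction was -5.29 ± 0.49 (edgeR adjusted p = 2.81e-05). FIT3, beside it on the chromosome and of the same kind, was at -4.14 ± 0.40 (edgeR adjusted p = 3.17e-05). FRE4, a ferric reductase, varied from 31.4 to 237 CPM among the cyc8 snf2 libraries, against 27.9 and 28.7 CPM in snf2. ENB1, a transporter of the siderophore enterobactin, was the one positive member, at 1.25.

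Not every gene with a large rise lost it. RNR3 (YIL066C), a ribonucleotide reductase subunit that responds to DNA damage, had 509, 411, 454 and 419 CPM in cyc8 snf2, 9.18 and 10.3 in snf2, 639.9, 519 and 564 in cyc8, and 11.2, 8.18 and 11.5 in wt. The pairs of groups differed to a like degree, and the interaction of -0.27 ± 0.19 was not called (edgeR adjusted p = 0.318). In the list of reductase genes and Crt1 targets 0 of 6 were called by edgeR, DESeq2 or limma-voom, and 2 had an unadjusted p below 0.05. HXT2, a high-affinity glucose transporter, was at -0.64 ± 0.15 (edgeR adjusted p = 0.00625), below the fold threshold, with a log2 fold change of 3.63 beside snf2 and of 4.27 without it. Of the 408 genes that rose with the cyc8 label and had no called interaction, 273 were also called higher in cyc8 snf2 than in snf2. Over all genes 9.12% were called higher and 3.08% lower there. The 408 genes were drawn from these same libraries by a called rise over wt and no called interaction. That rule favours a rise over snf2, so the 273 describe the set and are not a separate result. For 162 of the 640 genes that rose, the 95% interval of the interaction lay within -1 and 1.

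A smaller set of genes rose more beside the snf2 label than without it. In all 36 genes of enlarged rise both snf2 libraries were the lowest of the 12, against 812 of 6171 genes tested (13.2%). The class was drawn from these same libraries by a larger rise over snf2 than over wt. That rule favours low snf2 libraries, so the count describes the class and is not a separate result. TIR1 (YER011W, chrV:174912-176279, plus strand), a wall mannoprotein of cold and anaerobic cells, had 2622, 2313, 2461 and 2284 CPM in cyc8 snf2, 3.28 and 2.76 in snf2, 6494, 6139.9 and 5385 in cyc8, and 70.2, 72.0 and 53.3 in wt. The groups did not overlap, and the snf2 libraries were lowest. Its log2 interaction was 3.11 ± 0.20 (edgeR adjusted p = 1.74e-07), on the other side of 0 from its relative TIR4 (-1.41). PTR2 (YKR093W, chrXI:615528-617744, plus strand), the transporter of small peptides, had 1233, 1040.0, 1061 and 736 CPM in cyc8 snf2, 4.89 and 4.92 in snf2, 1279.6, 1169 and 1208 in cyc8, and 470.5, 576 and 329 in wt. The cyc8 snf2 libraries reached the level of the cyc8 libraries although the snf2 libraries were close to 0. The interaction was 6.29 ± 0.34 (edgeR adjusted p = 2.31e-07). RSB1, a transporter of sphingoid long-chain bases, had the same shape, with 183 to 285 CPM in cyc8 snf2, 0.663 and 0.922 in snf2, 198 to 238 in cyc8 and 23.8 to 27.8 in wt. Its interaction was 5.18 ± 0.28 (edgeR adjusted p = 7.17e-08).

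Genes of reserve carbohydrates belonged to the same side. In the trehalose and glycogen list 5 of 16 were positive and 0 negative (median 0.90), against 4.2% and 4.7% of all genes. In 11 of the 16 both snf2 libraries were the lowest of all, against 13.2% of all genes tested. The 5 positive genes were GSY1 and GSY2 (glycogen synthases), GPH1 (glycogen phosphorylase), GAC1 (a subunit of the phosphatase that activates glycogen synthase) and PGM2 (phosphoglucomutase). GAC1 had 536, 432, 482 and 331 CPM in cyc8 snf2, 4.47 and 4.76 in snf2, 601, 638 and 716 in cyc8, and 70.6, 55.5 and 17.1 in wt. For GSY1 and GAC1 replicate 3 of wt was the lowest of its group, at 108 and 17.1 CPM, with the others at 350.0 and 356 CPM for GSY1. Both remained called without it. In the general stress list 6 of 20 were positive and 2 negative (median 0.56). HSP12, a small membrane-protecting stress protein, averaged 375 ± 116 CPM in cyc8 snf2, 1.27 ± 0.276 in snf2, 1675 ± 66.7 in cyc8 and 22.3 ± 6.16 in wt, with an interaction of 1.96 ± 0.48 (edgeR adjusted p = 0.0117). HSP26, another small heat shock protein, went the other way at -1.48 ± 0.39 (edgeR adjusted p = 0.0162). Without snf2 replicate 2 HSP12 was no longer called (1.74, edgeR adjusted p = 0.0785), nor was HSP26 without snf2 replicate 1 (-1.33, edgeR adjusted p = 0.0918).

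A few genes of respiration were called higher under the cyc8 label only beside snf2. CYC1 (YJR048W, chrX:526027-526986, plus strand), iso-1-cytochrome c, had 51.0, 73.4, 67.3 and 86.9 CPM in cyc8 snf2, 5.86 and 6.91 in snf2, 87.6, 79.1 and 71.9 in cyc8, and 42.0, 39.6 and 57.4 in wt. Both snf2 libraries lay far below the rest, and 75.2% of the model overlaps another one on the other strand. The interaction was 2.67 ± 0.29 (edgeR adjusted p = 4.79e-05). HAP4, the activating subunit of the factor that drives respiratory genes, was at 2.25 ± 0.31 (edgeR adjusted p = 0.000324), with 27.7 ± 2.14 CPM in snf2. The list of the tricarboxylic acid cycle and respiratory chain as a whole had 2 positive and 3 negative interactions of 32 (median -0.02). Over all genes 4.2% were positive and 4.7% negative, so such small counts are no result about the list. Among Rox1-repressed hypoxic genes 2 of 11 were positive and 0 negative. These were ANB1, which encodes the eIF5A of hypoxic cells, at 1.13 (0.97 and not called without cyc8 replicate 3), and COX5B, the hypoxic form of a cytochrome oxidase subunit, at 1.80.

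The phosphate regulon held the largest share of positive interactions of the 26 lists, 14 of 17 genes against 4.2% of all genes, with a median of 1.81. It serves uptake and storage of phosphate. SPL2 (YHR136C, chrVIII:374514-375309, minus strand), a small protein that turns down low-affinity phosphate uptake, had 1.97, 1.91, 1.34 and 1.62 CPM in cyc8 snf2, 0.349 and 0.576 in snf2, 3.26, 3.18 and 1.29 in cyc8, and 91.5, 83.4 and 89.1 in wt. The wt libraries were high and all 3 mutant groups were low. The interaction of 7.0 ± 0.45 (edgeR adjusted p = 2.78e-07) therefore came with levels that stayed below wt in each mutant. The level that multiplying the effects would give lies below the limit of 3 counts in the cyc8 snf2 libraries (0.142 to 0.183 CPM). A level below that product could not have been measured. VTC3 (YPL019C, chrXVI:514386-517265, minus strand), a subunit of the polymerase that stores polyphosphate in the vacuole, had 57.4, 55.2, 56.7 and 58.3 CPM in cyc8 snf2, 49.9 and 52.6 in snf2, 61.0, 65.6 and 59.1 in cyc8, and 468, 485 and 488 in wt. Its interaction was 3.11 ± 0.10 (edgeR adjusted p = 3.44e-10). PHO84, the high-affinity phosphate transporter, was at 4.96 ± 0.79 (edgeR adjusted p = 0.00112), and its model lies wholly within others on the opposite strand. In 13 of the 17 genes every wt library was above every other library, against 9.92% of all genes tested. Either label alone went with a level below wt in VTC3 and SPL2.

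Sulfur assimilation was the mirror image. Of 24 genes of sulfur and methionine, 16 were negative and 0 positive (median -1.52), against 4.7% and 4.2% of all genes. MET2 (YNL277W, chrXIV:117186-120582, plus strand), which acetylates homoserine on the way to methionine, had 41.1, 40.4, 38.4 and 39.3 CPM in cyc8 snf2, 68.8 and 71.2 in snf2, 31.8, 23.4 and 26.3 in cyc8, and 7.18, 5.42 and 7.05 in wt. The wt libraries were lowest and the snf2 libraries highest, and models on both strands overlap this one. Its interaction was -2.86 ± 0.17 (edgeR adjusted p = 9.07e-08). SUL2 (YLR092W, chrXII:323544-326225, plus strand), a sulfate permease, had 38, 48.4, 42.5 and 35.0 CPM in cyc8 snf2, 127 and 119 in snf2, 38.5, 17.3 and 16.9 in cyc8, and 8.46, 8.84 and 7.89 in wt. The cyc8 label thus went with a higher level in the BY4741 pair and a lower level in the FY2083 pair, and the interaction was -3.11 ± 0.39 (edgeR adjusted p = 0.00018). The other sulfate permease, SUL1, was at -4.18 ± 0.45 (edgeR adjusted p = 2.05e-05). In 18 of the 24 genes both snf2 libraries were the highest of all, against 15.4% of all genes tested. In 18 every wt library was the lowest, against 9.69% of all genes tested. All 4 strains carry met15del0, whose gene MET17 had 0 to 18 counts per library.

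Genes of arginine metabolism were mostly negative as well. Of 9 tested, 7 were negative and 1 positive (median -1.55), against 4.7% and 4.2% of all genes. ARG1 (YOL058W, chrXV:219139-220684, plus strand), argininosuccinate synthetase, had 5.81, 5.63, 7.03 and 6.12 CPM in cyc8 snf2, 52.3 and 47.0 in snf2, 5.95, 9.06 and 8.01 in cyc8, and 14.7, 19.0 and 15.9 in wt. The snf2 libraries were highest, and the cyc8 snf2 libraries overlapped the cyc8 libraries. The interaction was -1.92 ± 0.21 (edgeR adjusted p = 2.79e-05). ARG3, ornithine carbamoyltransferase, was at -2.85 ± 0.28 (edgeR adjusted p = 1.1e-05). CAR1, the arginase that breaks arginine down, was negative as well (-1.55), while CAR2, the next enzyme of breakdown, was the positive member (1.58). ARG5,6 is not analysed here.

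Falls that were larger beside snf2, or called only there, made up a small group. DIP5 (YPL265W, chrXVI:40917-43190, plus strand), the permease of acidic amino acids, had 1.87, 1.31, 2.36 and 1.79 CPM in cyc8 snf2, 230.2 and 235 in snf2, 3.89, 6.27 and 5.16 in cyc8, and 161, 205 and 132 in wt. The cyc8 snf2 libraries were the lowest of all 12. The interaction was -2.0 ± 0.30 (edgeR adjusted p = 0.000478). CIT2, the peroxisomal citrate synthase, and DLD3, both known as targets of the retrograde signal from mitochondria, were at -1.22 ± 0.22 and -1.75 ± 0.14 (edgeR adjusted p = 0.00147 and 1.58e-06), with the highest levels in snf2, at 428 ± 17.3 and 935 ± 6.73 CPM. URA1 and URA2, enzymes of pyrimidine synthesis that act before Ura3, were both at -1.61 ± 0.10 (edgeR adjusted p = 8.21e-08 and 1.38e-07). URA1 averaged 237 ± 9.80 CPM in cyc8 snf2, 895 ± 37.5 in snf2, 482 ± 17.8 in cyc8 and 595 ± 16.0 in wt. Only the cyc8 snf2 libraries carry a working URA3 gene, and its part in these values cannot be told apart from that of the labels.

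Called interactions of a-specific and histone genes were positive. Of 7 a-specific genes 4 were positive and 0 negative (median 1.24), against 4.2% and 4.7% of all genes. MFA1, a precursor of the a-factor pheromone, averaged 13.2 ± 1.38 CPM in cyc8 snf2, 34.8 ± 1.93 in snf2, 16.1 ± 2.49 in cyc8 and 266 ± 31.2 in wt, and its interaction was 2.65 ± 0.18 (edgeR adjusted p = 3.97e-07), with 55% of its model overlapped on the same strand. STE2 was not called (0.86). In all 7 a-specific genes every wt library was the highest, against 9.92% of all genes tested. STE3, expressed in alpha cells, fell more beside snf2, at -2.87 ± 0.41 (edgeR adjusted p = 0.000209), from low levels of 9.14 and 9.32 CPM in snf2. Of 10 histone genes 5 were positive and 0 negative (median 0.94), and the highest, HHF1 for histone H4, averaged 319 ± 31.1 CPM in cyc8 snf2, 202 ± 0.122 in snf2, 260.5 ± 11.7 in cyc8 and 434 ± 2.17 in wt. SER3, a serine synthesis enzyme that Swi-Snf is known to keep low through upstream transcription, had no called interaction (-0.18 ± 0.39, edgeR adjusted p = 0.79) and stood at 1079 ± 159 CPM in cyc8 snf2 and 1077 ± 6.20 in snf2, against 57.5 ± 2.92 in cyc8 and 50.7 ± 22.1 in wt.

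Some lists had no called member or few. Over all genes tested 4.2% were positive and 4.7% negative. Of 12 genes for Swi-Snf subunits 0 were called, SNF2 itself being at 0.73 ± 0.13 (edgeR adjusted p = 0.00145), and 0 of 10 genes of inositol and phospholipid synthesis and 0 of 9 genes of daughter cell separation were called. DESeq2 and limma-voom also called 0 in each of these lists, while an unadjusted edgeR p below 0.05 was reached by 4, 3 and 6 of their genes. INO1, the rate-limiting enzyme of inositol synthesis, was at -0.56 ± 0.32 (edgeR adjusted p = 0.232). Among the repressors that recruit Tup1-Cyc8, together with TUP1, 3 of 16 were negative (MIG2, MIG3 and YAP6) and NRG1 was positive. MIG2 was called only with both snf2 libraries, the edgeR adjusted p being 0.0872 without replicate 1 and 0.0535 without replicate 2. TUP1 was at 0.46 ± 0.10 (edgeR adjusted p = 0.004). Hexose transporters had 2 positive and 3 negative members of 15 (median -0.64), and glycolysis 3 positive and 1 negative of 17, the last being HXK2, the main hexokinase on glucose. Osmotic stress had 2 positive and 1 negative of 10, pheromone response 3 positive and 0 negative of 12, and the uptake of serine, peptides and amino acids 1 positive and 2 negative of 17.

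**Figure D3:**
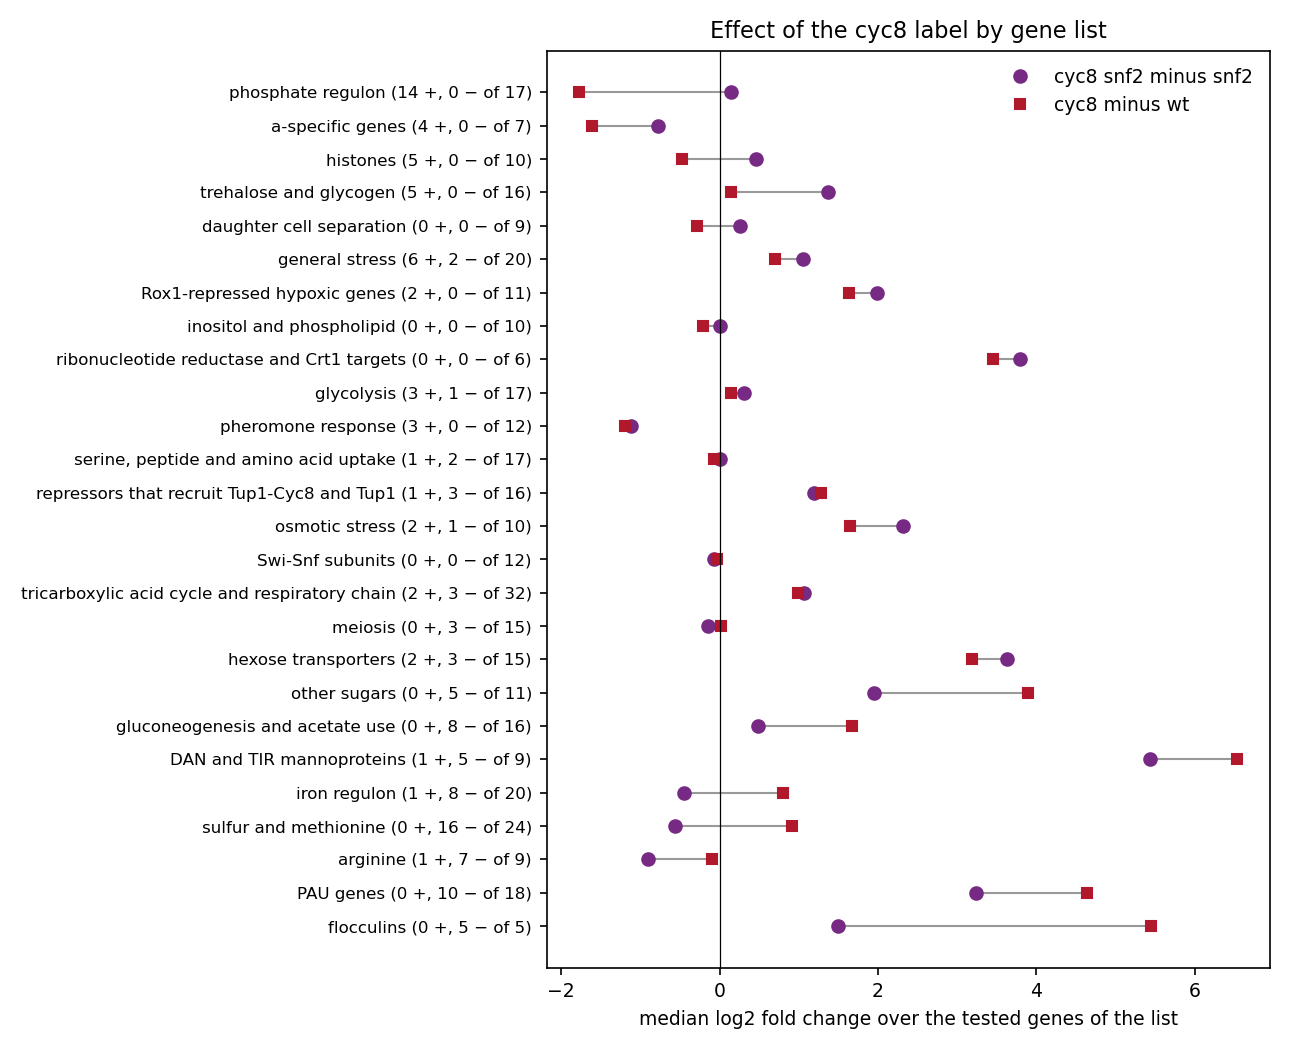
Median log2 fold change under the cyc8 label over the tested genes of each of 26 lists, beside snf2 (cyc8 snf2 minus snf2, circles) and without it (cyc8 minus wt, squares), with the number of positive and negative interactions in brackets. The squares lie to the right of the circles for flocculins, PAU genes, other sugars, sulfur and iron, and to the left for phosphate, a-specific, histone and glycogen genes.

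The level of the double mutant was then set beside each single mutant. It counted as near a single mutant when the 95% interval of their difference lay within -1 and 1 on the log2 scale. Of the 549 genes 162 (29.5%) were near cyc8 only, 116 near both, 48 near snf2 only, 52 between the single mutants, 6 above both and 15 below both. A further 150 could not be resolved at this precision. Over all genes tested 4361 were near both, 903 near cyc8 only and 165 near snf2 only. Among the 36 genes of enlarged rise 20 were near cyc8 only, PTR2, RSB1 and NRG1 being examples. Genes of that class cannot be near snf2, because the class requires a called rise of cyc8 snf2 over snf2. Among the 113 genes of blocked rise 36 were near both single mutants, 34 near snf2 only, as FLO5 and IME1 were, 17 near cyc8 only, as MET2 was, and 26 could not be resolved. Of the 72 genes of reduced rise 35 lay between, SUC2, FLO1 and PAU5 among them. The comparison with cyc8 crosses the strains, so strain and mutation cannot be told apart in it.

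**Figure D4:**
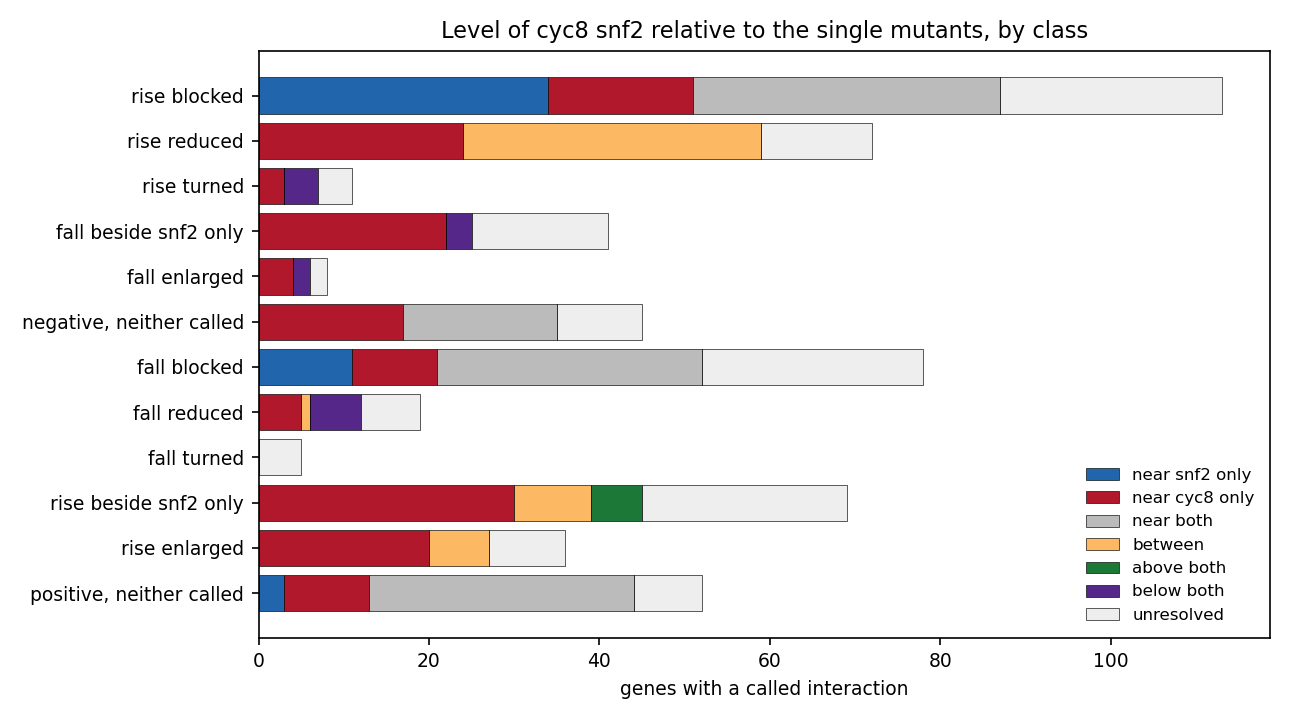
Number of genes with a called interaction in each class (bars), divided by where the level in cyc8 snf2 lay relative to snf2 and cyc8. The 34 genes near snf2 only in the blocked rise class make up most of that kind, and the 20 genes near cyc8 only lead the class of enlarged rise. By definition, only classes without a called difference between cyc8 snf2 and snf2 can hold genes near snf2.

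Read along the snf2 label, most interactions were differences that the FY2083 and BY4741 pairs showed without the cyc8 label and not with it. Of the 259 positive genes, 161 were lower in snf2 than in wt (5.4% of all genes tested) while cyc8 snf2 and cyc8 were not called different. Of the 290 negative genes, 148 were higher in snf2 than in wt (4.25%) while cyc8 snf2 and cyc8 were not called different. For 54 negative genes cyc8 snf2 was called lower than cyc8 (3.01% of all genes, against 0.924% called higher) and snf2 was not called different from wt, and SUC2, FLO1, FLO5, FLO9 and FLO11 are of this kind. Over all genes tested, 595 (9.64%) were called between snf2 and wt and 243 (3.94%) between cyc8 snf2 and cyc8. Both comparisons cross the strains in the same way. In 137 of the 259 positive genes the snf2 libraries were the lowest of the 12 (13.2% of all genes tested). In 126 of them the wt libraries were the highest (9.92%). In 157 of the 290 negative genes the wt libraries were the lowest (9.69%), in 104 the snf2 libraries (15.4%) and in 109 the cyc8 libraries (7.41%) the highest. The genes were called on these same libraries, so the counts are a description.

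The scale of the sum mattered little for negative genes. When the expected level was taken as cyc8 plus snf2 minus wt in CPM, in place of the product of the effects, 287 of the 290 negative genes (99%) and 232 of the 259 positive genes (89.6%) kept their sign. For positive genes that were lower in both single mutants this sum can be negative, as for BAR1 (-120 CPM) and EEB1 (-51.4 CPM). No level could then have changed the sign, so the share of positive genes does not show that their sign depended little on the scale.

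Negative interactions were frequent near chromosome ends. Within 20 kb of an end lay 45 of the 290 negative genes (15.5%), 7 of the 259 positive genes (2.7%) and 3.26% of all 6171 genes tested. Of the genes that rose with the cyc8 label 86 of 640 (13.4%) lay within 20 kb. Among those 640, the share was 18.4% for genes with a negative interaction, 12% for those not called and 2.78% for those with a positive one. In the bin from 5 to 10 kb 14 of 51 genes were negative (27.5%), and beyond 200 kb 106 of 3206 (3.31%). Of the 549 called genes 61 have over 50% of their words repeated elsewhere, so that their reads can be split with other genes. The share over all genes tested is not given here, so this count is a limit and not a trait of called genes. The median interaction of the nuclear chromosomes lay between -0.13 (chromosome IX) and 0.04 (chromosome XV).

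**Figure D5:**
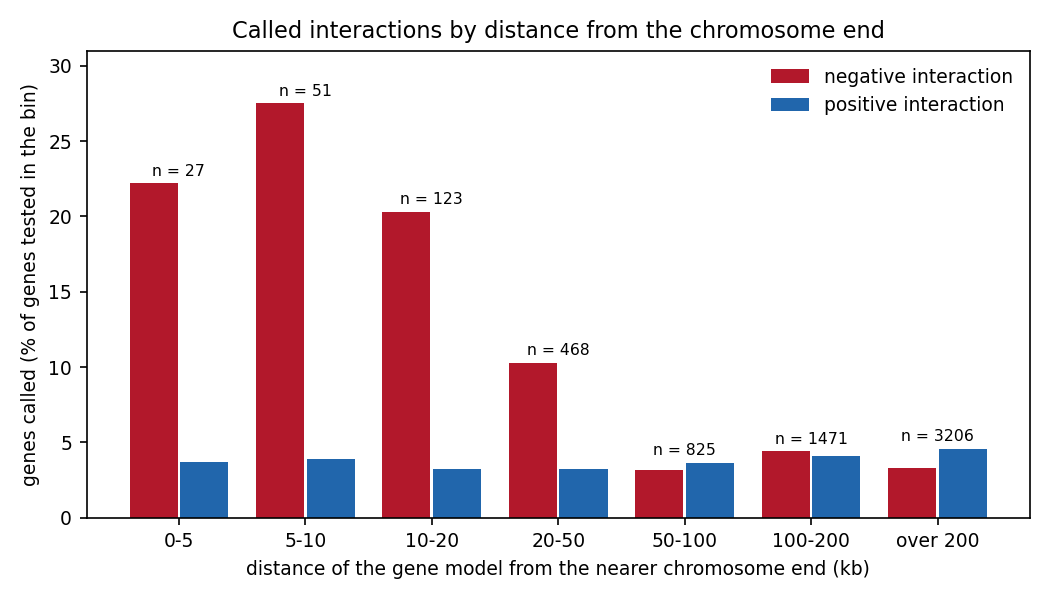
Share of genes tested with a negative (red) or positive (blue) called interaction, by distance of the gene model from the nearer chromosome end. The share of negative genes is 20.3 to 27.5% within 20 kb and 3.15 to 4.42% beyond 50 kb, while that of positive genes is 3.21 to 4.59% in every bin.

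The marked promoter letters were counted in the 600 bases before the coding start of 5704 genes tested, on both strands. The 10 motifs searched were chosen after the classes had been seen, and a match is a description of letters. CACGTG was found in 7.26% of all promoters, in 15 of 17 promoters of the phosphate list (88.2%) and in 18 of 24 of the sulfur list (75%), and these lists moved in opposite directions. AACTGTGG was found in 2.05% of all promoters and in 45.8% of the sulfur list. TGACTC was found in 15.7% of all promoters and in all 9 of the arginine list. GCACCC (Aft1) was found in 9.4% of all promoters, in 19 of 20 of the iron list and in 27.9% of the promoters of blocked rise. TCGTATA was found in 8.36% of all promoters, in 15 of 18 of the PAU list and in 27.9% of those of reduced rise. Lists and classes share genes, PAU5, PAU7 and PAU13 being in both of these sets, so such shares are not separate results. Letters were not limited to 1 list either, as GCACCC was also found in 10 of 18 promoters of the PAU list. CCCCT, the stress response element of Msn2 and Msn4, was found in 40.2% of all promoters, in 72.7% of those of enlarged rise and in 13 of 16 of the trehalose and glycogen list. TGAAACA (Ste12) was found in 14.3% of all promoters, in all 7 of the a-specific list and in 8 of 16 promoters of reduced fall. TATAAA was found in 64.8% of all promoters and in 83.8% of those of reduced rise. The remaining motifs, CCAAT (Hap complex) and ATTGTT (Rox1), were found in 70.5% and 54.6% of all promoters.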

How the data were processed

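Per the labels' protocols, hot phenol extraction was followed by removal of ribosomal RNA and paired-end Illumina sequencing of 12 libraries. The authors deposited 1 table of whole-number counts of reads per gene model. STAR, featureCounts, deepTools and the build R64 are named in the submitters' processing notes, without versions. No source used here gives the strand setting, so reads of overlapping models on opposite strands cannot be told apart. The length column that the authors deposited beside the counts was not used in any test.

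Of 7150 models, 6441 matched an ID of the R64 annotation and 709 did not, and 12 ribosomal RNA genes with 2 counts in all were left out. After edgeR's filter on low counts 6171 genes were tested in 1 fit over all 12 libraries with a mean per group (R 4.3.3, edgeR 4.0.16, robust quasi-likelihood fit, TMM scaling). Limma 3.58.1 and DESeq2 1.42.0 served as alternatives, together with other scalings, filters, thresholds and left-out libraries. Limits from counts cover counting error only. Replicate numbers were given to the libraries by their titles and were not used to pair them in the main fit.

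Named genes are CYC8, SNF2, TUP1, the marker genes, a short list of textbook genes such as SUC2, INO1 and SER3, up to 6 genes per class with the largest interaction at a mean of at least 10 CPM and a call in each fit that left out 1 library, and up to 3 called genes per list. Other genes were chosen after their values were seen. The members, gene lists and motifs were chosen with earlier results of these data known.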

Additional observations from a re-analysis of the deposited data

Results flagged for a closer look

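Of 119 genes examined, 9 had 1 cyc8 snf2 library that stood apart from the other 3 of its group by Dixon's criterion, which chance meets in about 1 of 20 groups. Only this group has the 4 libraries that the criterion needs. FLO1 had 16.1 CPM in replicate 4, with the others at 20.9 to 21.5. SUC2 had 325 CPM in replicate 1, with the others at 383 to 391. PAU15 had 7.90 CPM in replicate 4, with the others at 10.5 to 11. HXT2 had 6553 CPM in replicate 2, with the others at 5990.5 to 6041. Among genes of mating type a, STE2 had 112 CPM and STE6 had 70.1 CPM in replicate 1, with the others at 145 to 149.7 and 78.1 to 79.4, and MFA2 had 455 CPM in replicate 4, with the others at 535 to 541. MRPL20, a protein of the mitochondrial ribosome, had 27.2 CPM in replicate 4, with the others at 19.4 to 20.4. HIS3, a deleted marker, had 0.128 CPM in replicate 3 and no count in the others.

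The effect of the cyc8 label differed between the snf2 and the unmarked background in the test of the difference itself, for 259 genes with a higher and 290 with a lower effect beside snf2.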

How the results depend on the processing

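Of the 104 named genes with a called interaction, 0 were called in the opposite direction under any setting. The counts of 259 positive and 290 negative genes lay between 247 and 271 and between 283 and 308 under other scalings, filters, DESeq2, limma-voom and a fit that was not robust, and were 206 and 268 among protein-coding genes only. An absolute log2 interaction of at least 1.5 left 148 positive and 171 negative genes, 107 rises blocked, reduced or turned (of 196), 58 such falls (of 102), 27 falls (of 49) and 63 rises (of 105) that were enlarged or called only beside snf2. An adjusted p below 0.01 left 69 of these last rises. Leaving out 1 library gave 205 to 274 positive genes, 260 to 306 negative ones, 182 to 209 rises and 80 to 109 falls blocked, reduced or turned, 38 to 53 falls and 77 to 118 rises enlarged or called only beside snf2. Without 1 snf2 library the other is assumed to vary like the other groups.

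With the replicate number as a block, 251 positive and 289 negative genes were called. Libraries of different groups with the same number had correlations of their deviations from -0.13 to 0.21. Those with different numbers had correlations from -0.36 to 0.39. The same numbers thus did not stand out, but these values cannot show whether libraries shared a culture or handling. Under the other scalings, filters, tools and the block, PAU20 (adjusted p = 0.0503 to 0.0867, edgeR), GPD1, HO, HSP12, RIM4 and SIP4 lost their call in at least 1, HSP12 with limma-voom (adjusted p = 0.0928). PAU20 was at -1.93 without snf2 replicate 2 (edgeR adjusted p = 0.937) and at -6.2 with all libraries (edgeR adjusted p = 0.0492). The cause was not tested. The depth limits 13 called genes with a group at 3 counts or fewer, and the snf2 group has 2 libraries.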
